A study of Mus musculus with 12 samples.

Results

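The 10 genes described here, Scd1, Scd3, Elovl3, Awat2, Fa2h, Soat1, Mc5r, Dgat2l6, Acsbg1 and Mgst1, are lipid genes of the sebaceous gland, chosen by symbol from a list of sebocyte desaturases, elongases, acyltransferases and a receptor. All 10 were found among the 23282 entries counted in skin. Skin RNA was compared between 5 AD mice and 7 HF + AD mice, the latter named AD+OB in the labels. All 12 animals were male C57BL/6J mice with a wild-type genotype, 5 weeks old at the start, and in both groups 2,4-dinitrochlorobenzene (DNCB), a hapten that provokes dermatitis, was painted on the skin at 0.5% 3 times a week for 6 weeks. The AD mice ate normal chow, whereas the HF + AD mice ate a high-fat diet with 60 kcal% fat for 10 weeks, the first 4 of them before DNCB. Hapten-painted animals model the lesions and not the heredity of atopic dermatitis, and with DNCB in both groups the labels separate them by diet.

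Sebaceous glands open into the hair canal and release sebum when mature sebocytes, filled with lipid droplets, burst. Sebum is made of wax esters, triglycerides, sterol esters and free fatty acids, for which fatty acids are synthesised, desaturated, elongated and hydroxylated before they are joined to an alcohol. Stearoyl-CoA desaturases supply the monounsaturated chains, and mice that lack Scd1 are known for atrophic sebaceous glands and a dry, thin coat.

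In short, Scd1 fell with the high-fat diet, to about 0.599 of its AD level, while the other 8 genes that could be tested did not pass the test. That 1 of 9 was called stands beside 9.2% of all genes. The log2 changes of Fa2h (−0.77) and Awat2 (−0.79) were about as large as that of Scd1 (−0.74) but did not pass. Awat1, a wax synthase gene that lies beside 2 of the 10 genes and is not among them, moved the other way and rose 1.91-fold.

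The 3 wax-type acyltransferase genes of this comparison, Awat2, Dgat2l6 and Awat1, are neighbours on the X chromosome of GRCm38. Awat2 lies on the minus strand at 100402221 to 100442717, Dgat2l6 on the plus strand at 100524838 to 100546144, and Awat1 on the plus strand at 100572251 to 100578205. Between Awat2 and Dgat2l6 are 82.12 kb, and between Dgat2l6 and Awat1 26.11 kb. Of the 3, Awat1 passed the test and the other two did not, and their promoter windows are shown so that the neighbours can be compared, each with 250 bases before and 50 after the start site, from RefSeq on GRCm38.p6 and 5′ to 3′ on the gene's strand. Capitals mark CCAAT, or ATTGG where the motif is on the opposite strand. The windows are chrX:100442668-100442967 (minus strand) for Awat2, chrX:100524588-100524887 (plus strand) for Dgat2l6 and chrX:100571997-100572296 (plus strand) for Awat1.
Awat2: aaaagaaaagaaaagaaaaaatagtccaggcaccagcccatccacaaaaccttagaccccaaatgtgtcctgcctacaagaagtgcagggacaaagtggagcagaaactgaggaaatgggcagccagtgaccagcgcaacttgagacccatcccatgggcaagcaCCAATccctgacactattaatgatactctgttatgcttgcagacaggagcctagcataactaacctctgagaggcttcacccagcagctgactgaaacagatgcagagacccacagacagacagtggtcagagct
Dgat2l6: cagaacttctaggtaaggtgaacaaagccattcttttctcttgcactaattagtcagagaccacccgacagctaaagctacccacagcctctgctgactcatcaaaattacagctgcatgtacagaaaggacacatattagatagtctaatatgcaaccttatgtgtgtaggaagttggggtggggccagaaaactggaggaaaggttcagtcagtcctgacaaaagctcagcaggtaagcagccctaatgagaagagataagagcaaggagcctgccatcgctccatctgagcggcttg
Awat1: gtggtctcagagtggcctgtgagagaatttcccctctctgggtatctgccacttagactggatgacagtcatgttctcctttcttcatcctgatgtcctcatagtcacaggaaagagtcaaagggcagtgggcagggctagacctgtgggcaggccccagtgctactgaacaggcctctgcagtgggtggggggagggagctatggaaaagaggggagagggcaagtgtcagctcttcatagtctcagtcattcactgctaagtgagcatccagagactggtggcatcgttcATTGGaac
Awat2 has a further start site in the table, whose window (chrX:100412538-100412837) is not shown and held ATTGG 121 bases before that start. The CCAAT in the window shown for Awat2 began 85 bases before the start site, that of Awat1 lay on the opposite strand within the first 50 transcribed bases, and the Dgat2l6 window held none. Over both strands, CCAAT was present in 37.4% of all 32851 promoter windows. Of the 6 genes matched in the table, 3 had it in any of their windows, Awat2, Soat1 and Acsbg1. The first share is per window and the second per gene, and Awat2 and Mgst1 had more than 1 window. TATAAA was present in 13.6% of all windows, TCACCCCAC, a sterol response element, in 0.551%, and the DR1 repeat bound by PPAR receptors in 0.0396%, and none of these was in a window of the 6 genes. A match of letters is a description of the window and does not show binding.

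Sequencing read the 3′ ends of mRNA (QuantSeq), with 1 library per mouse and between 9746937 and 13462434 counts in each, and values are CPM, counts scaled to the same library total after TMM. For a gene with no count, up to 3 counts remain possible if each count stands for a separate molecule. That is 0.223 to 0.308 CPM depending on the library, from library totals without TMM, and covers counting error only. The libraries differed in another way. The number of counts per original molecule, estimated from the share of zeros, was between 12.01 and 32.2 in AD mice. It was between 3.86 and 7.29 in HF + AD mice, so that this property and the diet cannot be told apart. With several counts per molecule, a gene at 0 could lie above the limit of 3 counts, and more so in AD mice. Sebocytes were represented in every library, as 4 sebocyte markers outside the 10 genes, Awat1, Far2, Krt79 and Pparg, summed to between 637 and 1323 CPM in AD mice and between 665 and 1290 CPM in HF + AD mice. Krt79, also a gene of the duct, made up most of that sum and had a change of −0.19, whereas the changes of Awat1 (0.93), Pparg (0.82) and Far2 (0.35) were above 0, and of the 4 only Awat1 passed edgeR's test. The 10 genes took between 0.245% and 0.481% of all counts in AD mice and between 0.193% and 0.385% in HF + AD mice. In bulk skin, fewer sebocytes and less RNA per sebocyte cannot be told apart.

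The desaturases came first. Scd1, which places the double bond in palmitate and stearate, spans chromosome 19 from 44394455 to 44407879. Scd1 was measured at 1413, 2211, 2272, 1802 and 2173 CPM in AD mice 1 to 5, and in HF + AD mice the lowest value was 918, the median 1073 and the highest 1578 CPM. Of the HF + AD mice, 5 of 7 lay below every AD mouse, and 4 of 5 AD mice lay above every HF + AD mouse, with AD mouse 1 overlapping HF + AD mice 4 and 5. Scd1 fell by 0.74 on the log2 scale (SE 0.16, 95% interval −1.08 to −0.40, n = 5 and 7), with an adjusted p of 0.0126 by edgeR's quasi-likelihood test with Benjamini-Hochberg adjustment over 14163 genes. The exact permutation test over the 792 splits of the mice gave p = 0.00505, two-sided, on log2(CPM + 1). Leaving out any mouse kept the call, with changes between −0.83 and −0.69. Among all genes, 4.77% were called lower and 9.2% were called in either direction. Of the 9 tested sebaceous genes, 1 was called.

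Scd3 is the sebocyte desaturase with a preference for palmitate, and lies 150.4 kb from Scd1 on chromosome 19, at 44203269 to 44244016. Its level was 42.0, 105, 165, 140 and 188 CPM in AD mice 1 to 5, against a lowest value of 15.5, a median of 87.9 and a highest of 190 CPM in HF + AD mice. HF + AD mouse 3 was the lowest and HF + AD mouse 4 the highest of all 12, so that the HF + AD values enclosed those of the AD mice. The change of −0.41 (SE 0.44, 95% interval −1.35 to 0.52) had an edgeR adjusted p of 0.620, and with 1 mouse left out it lay between −0.67 (HF + AD mouse 4) and −0.22 (AD mouse 5). The coding sequences of Scd1 and Scd3 were identical at 91.5% of 1065 aligned bases. Within 500 bases of the ends of all annotated transcripts, where QuantSeq reads fall, Scd1 shared 165 of its 1182 stretches of 50 bases with Scd2, Scd3, Scd4 or AC123853.3. None of the 451 stretches at the end of the longest coding transcript was shared, for Scd1 or Scd3, and summing both genes into 1 entry left a change of −0.72 (edgeR adjusted p = 0.0152).

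**Figure D1:**
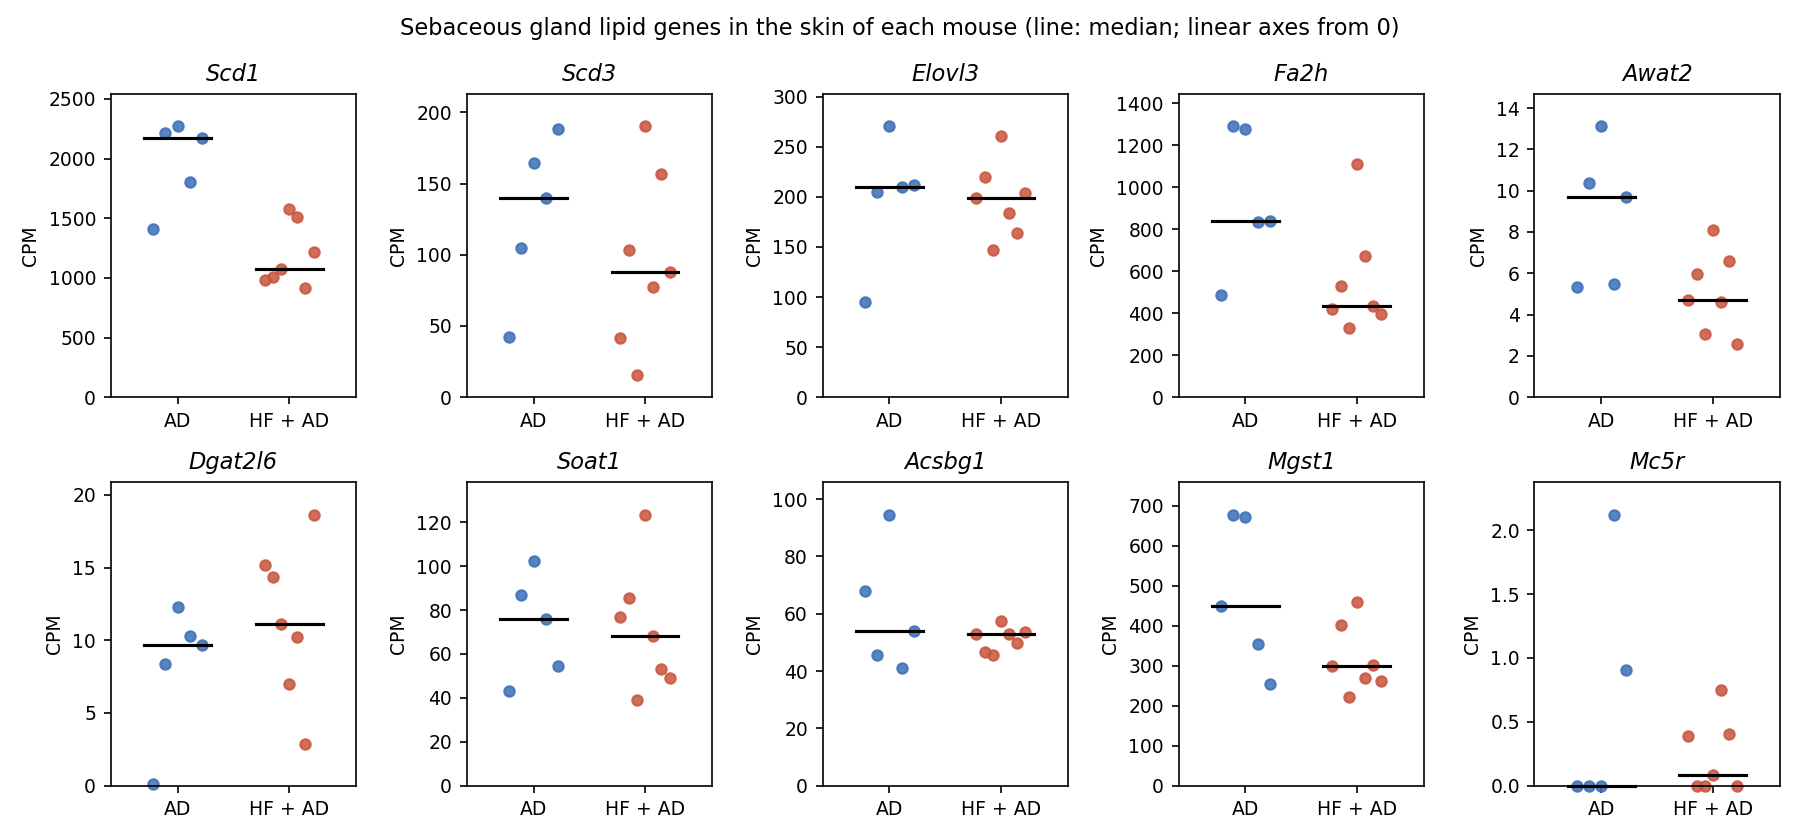
CPM of each of the 10 genes on linear axes from 0, with 1 point per mouse (5 AD, blue, and 7 HF + AD, red) and a line at the median. Scd1 in HF + AD mice lay between 918 and 1578 CPM and in AD mice between 1413 and 2272 CPM, and for each of the 10 genes the groups overlapped.

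Elovl3 and Fa2h act on the chain after its synthesis. Elovl3 elongates saturated and monounsaturated fatty acids in sebocytes (chromosome 19, 46131897 to 46135694). It stood at 95.4, 205, 271, 210 and 211 CPM in AD mice 1 to 5, and at 147 (lowest), 199 (median) and 261 (highest) CPM in HF + AD mice. Apart from AD mouse 1, which lay below every other animal, the values of the groups overlapped widely. The change was −0.011 (SE 0.20, 95% interval −0.44 to 0.41, edgeR adjusted p = 0.984), and its sign turned with library totals in place of TMM (0.028).

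Fa2h adds the hydroxyl group of hydroxylated fatty acids, which enter sebum waxes and the ceramides of the barrier (chromosome 8, 111345135 to 111393824). Values of Fa2h were 489, 1291, 1277, 835 and 840 CPM in AD mice 1 to 5, against 330 (lowest), 433 (median) and 1111 (highest) CPM in HF + AD mice. Of the HF + AD mice 4 of 7 lay below every AD mouse, whereas HF + AD mouse 4 exceeded 3 of the AD mice. Its change of −0.77 (SE 0.28, 95% interval −1.36 to −0.18) was close in size to that of Scd1 but did not pass (edgeR adjusted p = 0.0943). Without AD mouse 1 the change of Fa2h was −0.93 (edgeR adjusted p = 0.0352), without HF + AD mouse 4 it was −1.03 (edgeR adjusted p = 0.0206), and with a correction for GC content it was −0.97 (edgeR adjusted p = 0.0427). The exact permutation test gave p = 0.0455, two-sided, for Fa2h, and p between 0.0108 and 0.103 with 1 mouse left out, above 0.05 without AD mouse 2, 3, 4 or 5 or, in the HF + AD group, mouse 1, 2, 3, 6 or 7.

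The acyltransferases join the chain to an alcohol. Awat2 makes wax esters and was detected at a low level, 5.35, 10.4, 13.1, 5.49 and 9.69 CPM in AD mice 1 to 5, against 2.56 (lowest), 4.70 (median) and 8.09 (highest) CPM in HF + AD mice. Of the 7 HF + AD mice 4 lay below every AD mouse, and the groups overlapped between 5.35 and 8.09 CPM. The AD mice had 59 to 130 counts of Awat2, at an estimated 12.01 to 32.2 counts per molecule. Few original molecules therefore lie behind the AD values. The change was −0.79 (SE 0.41, 95% interval −1.66 to 0.072, edgeR adjusted p = 0.242). The exact permutation test gave p = 0.0442, two-sided, for Awat2, and p between 0.0273 and 0.106 with 1 mouse left out, above 0.05 without AD mouse 2, 3 or 5 or, in the HF + AD group, mouse 1, 3, 5 or 7.

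Dgat2l6, an acyltransferase of the DGAT2 family, was counted with 1 read in AD mouse 1 (0.0908 CPM) and at 8.39, 12.3, 10.3 and 9.69 CPM in AD mice 2 to 5. In HF + AD mice its lowest value was 2.86, its median 11.1 and its highest 18.7 CPM. The values of 3 HF + AD mice lay above every AD mouse, and the change of 0.48 (SE 0.62, 95% interval −0.83 to 1.78) had an edgeR adjusted p of 0.690. Without AD mouse 1 the change was 0.16 (edgeR adjusted p = 0.834). It was 1.04 by limma (adjusted p = 0.401) and 0.75 with the replicate number as a block (edgeR adjusted p = 0.668). Awat2 and Dgat2l6, neighbours of the same family, shared 60.6% of 846 aligned coding bases and none of their stretches of 50 bases.

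Soat1 esterifies cholesterol and spans chromosome 1 from 156424525 to 156474331. It was measured at 43.3, 87.0, 102, 75.8 and 54.7 CPM in AD mice 1 to 5, against 38.8 (lowest), 68.0 (median) and 124 (highest) CPM in HF + AD mice. The HF + AD values enclosed the AD values, and the change was −0.039 (SE 0.26, 95% interval −0.60 to 0.52, edgeR adjusted p = 0.952).

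Acsbg1, an acyl-CoA synthetase that activates long fatty acids, and Mgst1, a microsomal glutathione transferase abundant in sebocytes, complete the enzymes. Acsbg1 (chromosome 9, 54604877 to 54661870) was found at 68.1, 45.6, 94.6, 41.1 and 54.0 CPM in AD mice 1 to 5, against 45.6 (lowest), 52.8 (median) and 57.6 (highest) CPM in HF + AD mice. The AD mice spread wider than the HF + AD mice and lay on both sides of them, with a change of −0.24 (SE 0.19, 95% interval −0.64 to 0.15, edgeR adjusted p = 0.462). It was −0.025 without AD mouse 3 and −0.45 with a correction for GC content. Mgst1 (chromosome 6, 138140316 to 138156755) was found at 449, 677, 672, 355 and 255 CPM in AD mice 1 to 5, against 222 (lowest), 298 (median) and 458 (highest) CPM in HF + AD mice. AD mice 2 and 3 exceeded every HF + AD mouse, whereas AD mouse 5 lay below all but 1 of them. The change of Mgst1, −0.61 (SE 0.23, 95% interval −1.09 to −0.13), did not pass (edgeR adjusted p = 0.105). It passed without AD mouse 5 (−0.76, edgeR adjusted p = 0.0352) and by DESeq2's Wald test (−0.62, adjusted p = 0.0470). Its exact permutation p was 0.0808, two-sided, and between 0.0212 and 0.191 with 1 mouse left out, under 0.05 without AD mouse 5 or HF + AD mouse 4.

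Mc5r, the melanocortin receptor through which sebum secretion is stimulated, was barely detected. Its counts were 0, 0, 0, 24 and 10 in AD mice 1 to 5 and 5, 0, 0, 1, 8, 5 and 0 in HF + AD mice 1 to 7. Both groups held mice at 0, and the 2 AD mice with any count lay above every HF + AD mouse in CPM. Mc5r did not pass the filter on low counts of the main edgeR fit, and the exact permutation test gave p = 0.496, two-sided. No difference in this receptor was found, and with so few counts a true difference could have been missed.

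Over the 9 tested genes, 8 fitted changes were below 0, beside 48.3% of all 14163 genes, and 7 of 9 were with library totals in place of TMM. It was 6 of 9 with the replicate number as a block and 6 to 8 with 1 mouse left out. Of the 8, Elovl3 (−0.011) and Soat1 (−0.039) lay near 0. Several of the genes also varied together, so their signs are not independent. The median change of the 9 was −0.41, beside 0.023 for all genes, and the changes ranged from −0.79 for Awat2 to 0.48 for Dgat2l6. At an unadjusted p under 0.05, 3 of the 9 passed by edgeR (Scd1, Fa2h and Mgst1, all below 0), beside 25.1% of all genes in either direction and 12.8% in that direction. In none of the 10 did the groups separate without overlap, beside 5.46% of all genes. Reads of genes on the opposite strand, Pitx3 at Elovl3, Otud6a at Awat2, Gm37648 at Soat1 and AC125101.1 at Scd3, cannot be told apart from those of the sebaceous genes unless counting used the strand, and whether it did is not given in the sources used here.

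**Figure D2:**
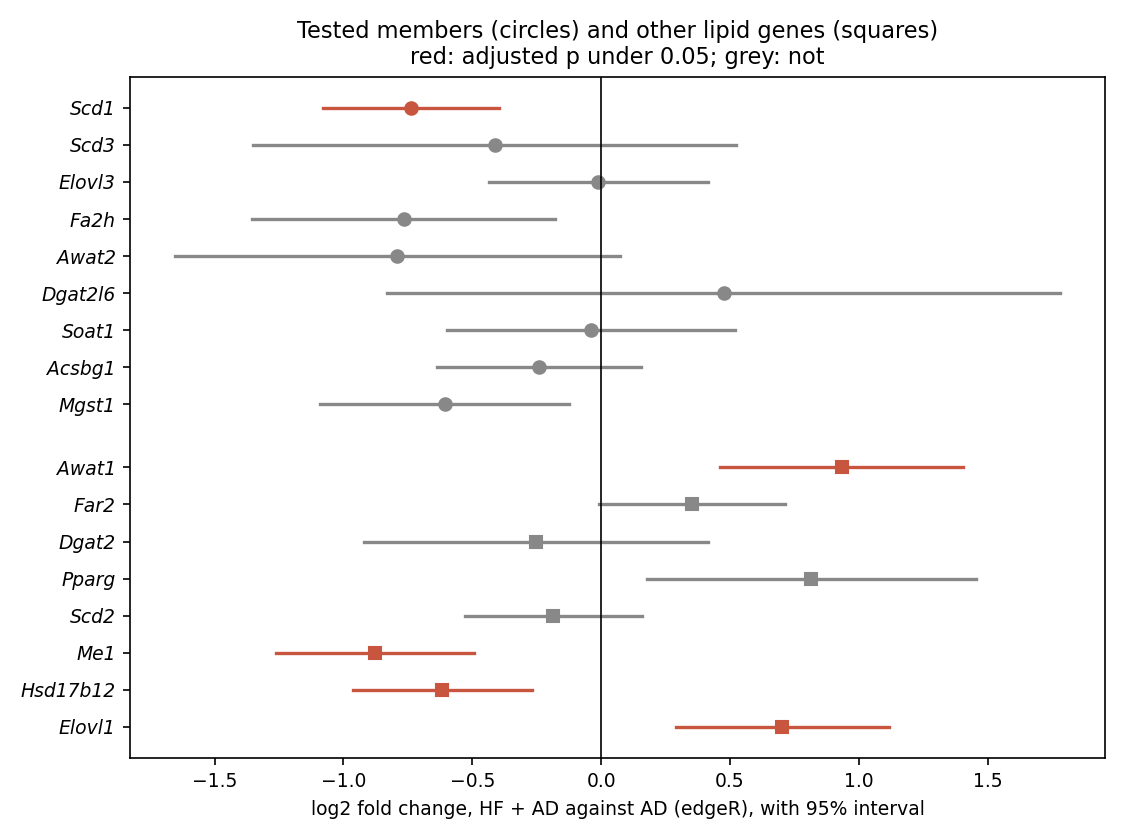
Log2 fold change of HF + AD against AD with its 95% interval by edgeR, for the 9 tested genes (circles) and for other lipid genes (squares), in red where the adjusted p over all genes was under 0.05. Scd1 (−0.74) stood clear of 0 on the left, and Awat1 (0.93) on the right.

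Several of the sebaceous transcripts varied together from mouse to mouse. After each group's mean was subtracted, the 36 pairs among the 9 tested genes had a median Pearson's r of 0.468 over the 12 mice, with 17 pairs above 0.5 and 2 below 0. Soat1 and Fa2h followed each other most closely (r = 0.885), followed by Scd1 and Fa2h (r = 0.820), whereas Dgat2l6 and Acsbg1 had the lowest value (r = −0.15). Acsbg1 had r between 0.101 and 0.191 with Scd1, Scd3, Elovl3, Fa2h and Soat1 over the 12 mice, and between 0.562 and 0.673 with the same genes over the 7 HF + AD mice alone. Dgat2l6 had r = 0.772 with Elovl3 and 0.488 with Scd1, but 0.190 with Scd3 and 0.085 with Awat2, over the 12 mice, of which AD mouse 1 had a single count. Over the 7 HF + AD mice alone these values of Dgat2l6 were 0.220, 0.082, −0.45 and −0.63. No other genes were paired for comparison. The points of such a correlation share a library, its depth and its piece of skin, so that they are given as a description.

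The same mice were high or low for several genes. AD mouse 3 had the highest value of all 12 mice for 4 genes (Scd1, Elovl3, Awat2 and Acsbg1), and HF + AD mouse 3 the lowest for 4 (Scd3, Fa2h, Soat1 and Mgst1). AD mouse 1 was the lowest for Elovl3 and Dgat2l6, and HF + AD mouse 4 the highest for Scd3 and Soat1. The median change of the 9 genes, −0.41 over all mice, moved in both directions when single mice were left out. It was −0.63 when AD mouse 1 and −0.67 when HF + AD mouse 4 was left out, but −0.27 when AD mouse 5 and −0.23 when HF + AD mouse 3 was left out.

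**Figure D3:**
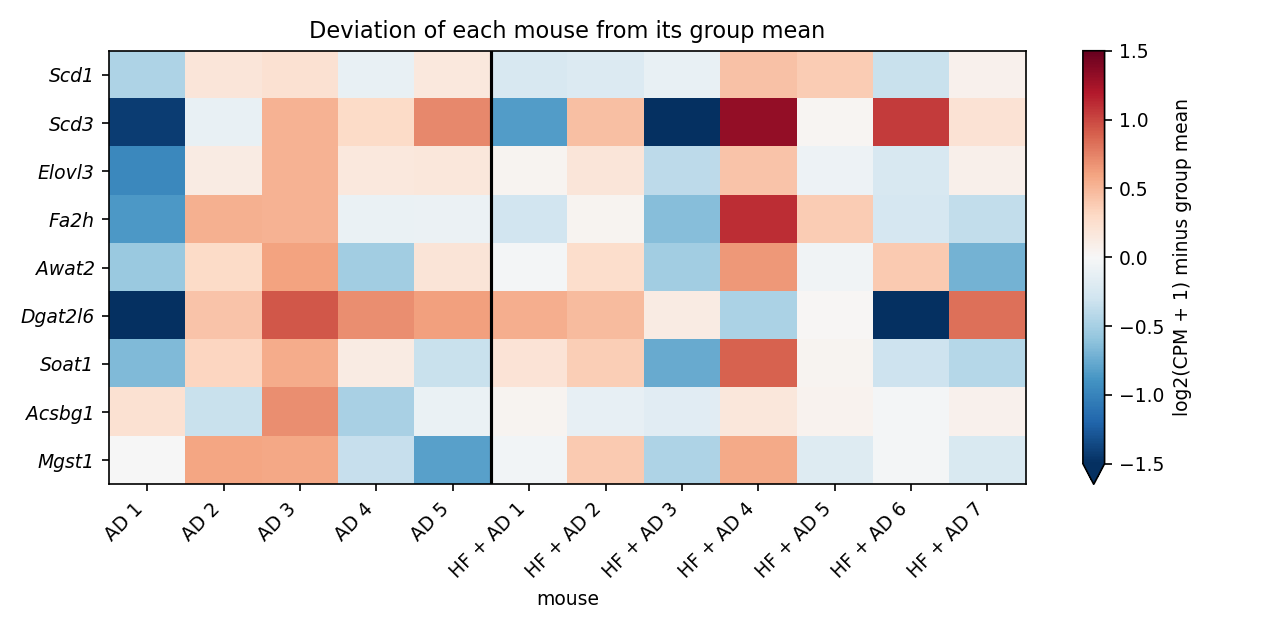
Deviation of each of the 12 mice (columns, AD left of the line) from its own group's mean, in log2(CPM + 1), for the 9 tested genes (rows). AD mouse 1 and HF + AD mouse 3 are blue (below their group mean) in most rows, and AD mouse 3 and HF + AD mouse 4 are red in most rows.

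Scd1 was also compared with each of the other tested genes inside the same library. These 8 ratios were chosen after the changes above had been seen, and a ratio to a gene that changed little repeats the change of Scd1. The log2 ratio of Scd1 to Elovl3, on CPM + 1, lay between 3.06 and 3.87 in AD mice and between 2.18 and 3.03 in HF + AD mice. Every HF + AD mouse was therefore below every AD mouse, by a narrow margin at the closest pair. The mean ratio differed by −0.79 (3.36 ± 0.33 SD, n = 5, against 2.57 ± 0.30 SD, n = 7), with an exact permutation p of 0.00253 and an adjusted p of 0.0202 over the 8 ratios. Leaving out any single mouse gave exact p-values between 0.00216 and 0.00909.

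Scd1 was also lower relative to Soat1 (−0.68), Dgat2l6 (−1.41) and Acsbg1 (−0.57), but these ratios did not pass the adjustment over the 8 (exact permutation p = 0.0341, 0.0278 and 0.0366, each with an adjusted p of 0.0732). The ratio to Dgat2l6 rested in part on AD mouse 1, which had 1 count of that gene, and without this mouse the difference was −0.86 (exact permutation p = 0.0939). With 1 mouse left out at a time, the exact p rose to as much as 0.0727 for Soat1 and 0.0909 for Acsbg1. Relative to Fa2h and Awat2, the differences of Scd1 were 0.050 and −0.061 (exact permutation p = 0.828 for each). For Mgst1 the difference was −0.20 (exact permutation p = 0.520) and for Scd3 −0.16 (exact permutation p = 0.785). Scd1 took between 46.6% and 57.2% of the reads on the 10 genes in AD mice and between 41.6% and 56.9% in HF + AD mice, shares that overlapped.

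**Figure D4:**
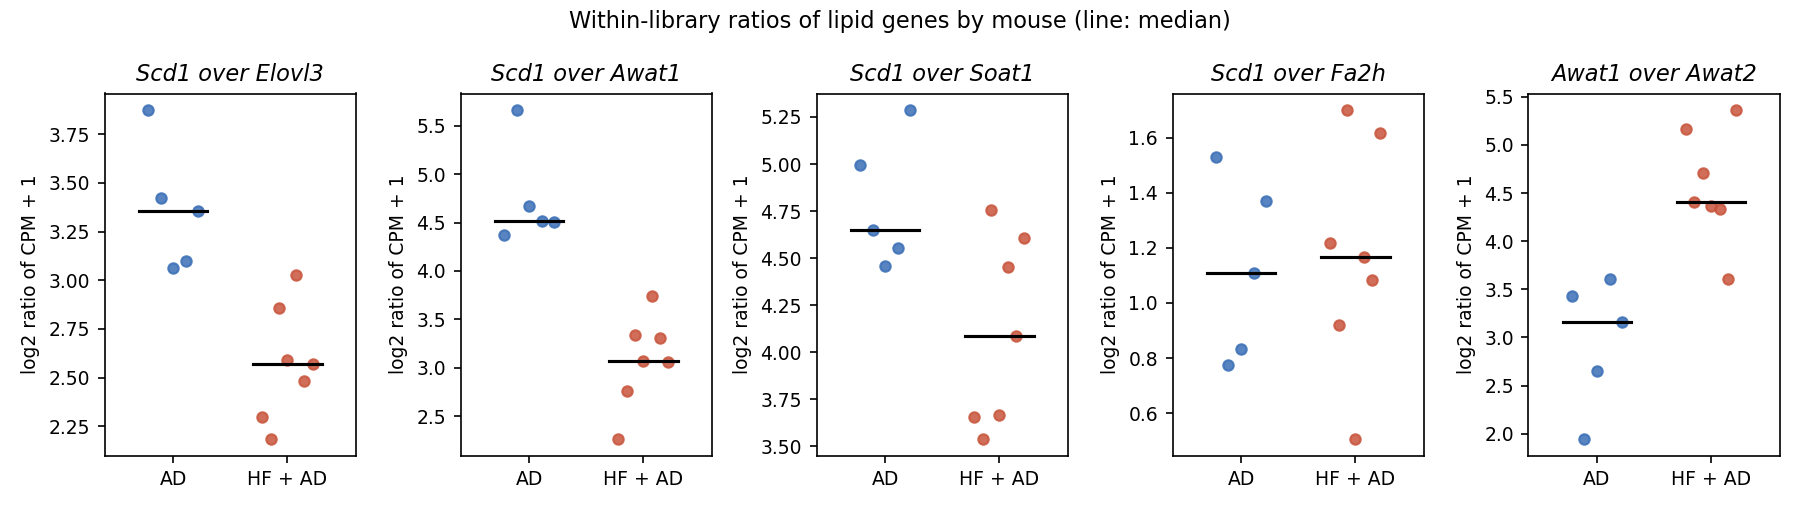
Log2 ratio of 2 genes' CPM + 1 within each library, with 1 point per mouse and a line at the median. The ratio of Scd1 to Elovl3 was between 3.06 and 3.87 in AD mice and at most 3.03 in HF + AD mice. That of Scd1 to Fa2h overlapped. All ratios shown were chosen after the changes of the single genes had been seen. Those with Awat1 are a description and were not tested.

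Beyond the 10 genes, 8 genes of wax ester, sterol ester and triglyceride synthesis were listed, of which 5 had enough counts. Of these 5, 1 rose, none fell and 4 did not pass the test, and their median change was −0.031 beside 0.023 for all genes. The gene that rose was Awat1, the wax synthase next to Dgat2l6. Awat1 was measured at 67.5, 42.7, 88.1, 77.8 and 94.8 CPM in AD mice 1 to 5, and at 91.8 (lowest), 145 (median) and 204 (highest) CPM in HF + AD mice. All but 1 of the HF + AD mice lay above every AD mouse. The change was 0.93 (SE 0.22, 95% interval 0.46 to 1.41, edgeR adjusted p = 0.0179), and 4.43% of all genes were called higher. It passed without each mouse in turn, with changes between 0.79 and 1.05.

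Awat1 and Awat2 thus had changes of opposite sign, of which only that of Awat1 passed the test. The log2 ratio of Awat1 to Awat2, given as a description, was between 1.94 and 3.60 in AD mice and between 3.61 and 5.36 in HF + AD mice. The log2 ratio of Scd1 to Awat1 was between 4.37 and 5.66 in AD mice and between 2.26 and 3.74 in HF + AD mice. Far2, the reductase that makes fatty alcohols for waxes, had a change of 0.35 (SE 0.17, edgeR adjusted p = 0.211), and Dgat2, the last enzyme of triglyceride synthesis, −0.25 (SE 0.32, edgeR adjusted p = 0.678). The change of Far2 was 0.23 when AD mouse 1 was left out.

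Of 16 genes of fatty acid synthesis, desaturation and elongation, 14 had enough counts, and 1 rose, 2 fell and 11 did not pass, beside 9.2% of all genes called, with a median change of 0.15. Me1, the malic enzyme that supplies NADPH for lipogenesis, was at 260, 233, 308, 190 and 188 CPM in AD mice 1 to 5, and at 94.96 (lowest), 119 (median) and 184 (highest) CPM in HF + AD mice. The groups of Me1 did not overlap, as for 2.56% of all genes with HF + AD lower, and Me1 fell by 0.88 (SE 0.18, edgeR adjusted p = 0.0101). Hsd17b12, the reductase of the elongation cycle, had a median of 1106 CPM in AD and 612 CPM in HF + AD mice and fell by 0.62 (SE 0.16, edgeR adjusted p = 0.0281).

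Elovl1, which elongates very long saturated chains, had a median of 94.8 CPM in AD and 160 CPM in HF + AD mice and rose by 0.70 (SE 0.20, edgeR adjusted p = 0.0343). Elovl1 and Hsd17b12 lay near the threshold, and their calls were lost with fewer mice while their changes moved little. Elovl1 did not pass when AD mouse 2, 3, 4 or 5, or mouse 1, 2, 4 or 7 of the HF + AD group, was left out (changes between 0.59 and 0.72, edgeR adjusted p between 0.0539 and 0.0818), nor with a correction for GC content (0.60, edgeR adjusted p = 0.0532). Hsd17b12 did not pass when AD mouse 2 or 3, or mouse 2, 6 or 7 of the HF + AD group, was left out (changes between −0.60 and −0.56, edgeR adjusted p between 0.0533 and 0.0644). Scd2, a desaturase expressed in many tissues, had a change of −0.19 (SE 0.16, edgeR adjusted p = 0.521), and with 1 mouse left out it lay between −0.27 (AD mouse 3) and −0.066 (AD mouse 5), AD mouse 1 also moving it close to 0.

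Of the acyl-CoA synthetases, 4 of 6 had enough counts. By edgeR none was called, beside 9.2% of all genes, and none had an unadjusted p under 0.05, beside 25.1%. DESeq2 and limma called none either, beside 1946 and 1558 of all 14163 genes. Among 12 genes of sebocyte differentiation, the duct and lipid droplets, edgeR called none, 4 had an unadjusted p under 0.05 (beside 25.1% of all genes), limma called none and DESeq2 called 1 (Lrig1, −0.58, adjusted p = 0.0391), beside 1946 of all 14163 genes. Pparg, the nuclear receptor that drives sebocyte differentiation, stood at a median of 9.41 CPM in AD and 15.8 CPM in HF + AD mice, with a change of 0.82 (SE 0.30, edgeR adjusted p = 0.0994). After division by counts per molecule the edgeR adjusted p of Pparg was 0.0494.

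For the melanocortin system, 3 of 9 listed genes had enough counts, none was called by edgeR or DESeq2, 1 had an unadjusted p under 0.05 by edgeR (beside 25.1% of all genes) and limma called 1, beside 1558 of all 14163 genes. Of the 5 relatives of Mgst1 in the MAPEG family, 1 rose and 4 did not pass, beside 9.2% of all genes called. It was Alox5ap, which presents arachidonic acid to the enzyme that starts leukotriene synthesis, with a median of 4.35 CPM in AD and 16.4 CPM in HF + AD mice and a rise of 1.86 (SE 0.40, edgeR adjusted p = 0.0113).

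The genes whose levels followed the sebaceous genes most closely were found among 13191 genes with a mean of at least 20 counts, by Pearson's r with the mean of the 9 standardised genes over 12 mice, each group's mean subtracted. The 10 closest were Cers4 (r = 0.957), Elovl6 (r = 0.949), Atl3 (r = 0.947), Cisd1 (r = 0.936), Clstn3 (r = 0.915), Tlcd2, Gm13178, Psapl1, Phf20l1 and Zmym5 (r = 0.881). Cers4 is a ceramide synthase and Elovl6 elongates palmitate. Of 12 lipid and sebocyte genes outside the 10 that were looked up, Cidea (r = 0.716), Hsd17b12 (r = 0.667), Pparg (r = 0.610), Me1 (r = 0.608), Far2 (r = 0.604), Plin2 (r = 0.516) and Far1 (r = 0.407) were above 0 but far from the closest, at positions 326 to 2480 of the 13191. Krt79 (r = 0.325) and Awat1 (r = 0.317, position 3364) were further down, and Elovl1 (r = −0.21), Scd2 (r = −0.57) and Dgat2 (r = −0.37) were below 0. Without AD mouse 1 the value was −0.030 for Dgat2, 0.304 for Far2 and 0.866 for Me1. With 1 mouse left out at a time, Awat1 lay between 0.149 and 0.541 and Pparg between 0.375 and 0.697. Likewise, Plin2 lay between 0.281 and 0.640, Far1 between 0.260 and 0.580 and Scd2 between −0.67 and −0.37.

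Other cell types also differed between the groups. Of 7 keratinocyte markers, 6 were counted and 3 of them, the basal keratins Krt5, Krt14 and Krt15, rose, beside 4.43% of all genes. The suprabasal markers did not pass the test, with changes of 0.12 for Krt1 (edgeR adjusted p = 0.926), −0.42 for Krt10 (edgeR adjusted p = 0.690) and −0.29 for Lor (edgeR adjusted p = 0.804). The sum of the 6, to which Krt5 and Krt14 gave most, was 3240 to 5706 CPM in AD mice and 5760 to 10193 CPM in HF + AD mice, without overlap. Hair shaft keratins summed to between 2104 and 4261 CPM in AD mice and between 3614 and 5674 CPM in HF + AD mice, and 3 of 8 rose. Of 8 inner root sheath markers 2 rose (Krt27, 0.95, and Krt71, 0.74), with overlapping sums of 7505 to 12138 CPM in AD mice and 8913 to 12790 CPM in HF + AD mice. The 10 sebaceous genes summed to between 2604 and 4879 CPM in AD mice and between 1886 and 3795 CPM in HF + AD mice. The part of these shifts in the change of Scd1 was not tested.

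Scd1 is also a gene of adipocytes. The 8 adipocyte markers summed to between 104 and 749 CPM in AD mice and between 94.6 and 595 CPM in HF + AD mice, with AD mouse 1 the highest of all 12. Of the 7 that had enough counts, 1 rose (Lipe) and none fell, beside 4.43% and 4.77% of all genes, and no defining marker was at 0 in every mouse. The 6 skeletal muscle markers summed to between 847 and 2164 CPM (median 1390) in AD mice and between 544 and 1336 CPM (median 785) in HF + AD mice, with overlap. Of these 6, 1 fell (Acta1, −0.72), beside the same 4.77%, and the median change was −0.70, with Myh4 at −1.82 (edgeR adjusted p = 0.0558) and Mylpf at 0.54. The part of this lower muscle sum in the change of Scd1 was not tested. The sums of the dermal fibroblast markers and of the macrophage and dendritic cell markers overlapped between the groups.

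**Figure D5:**
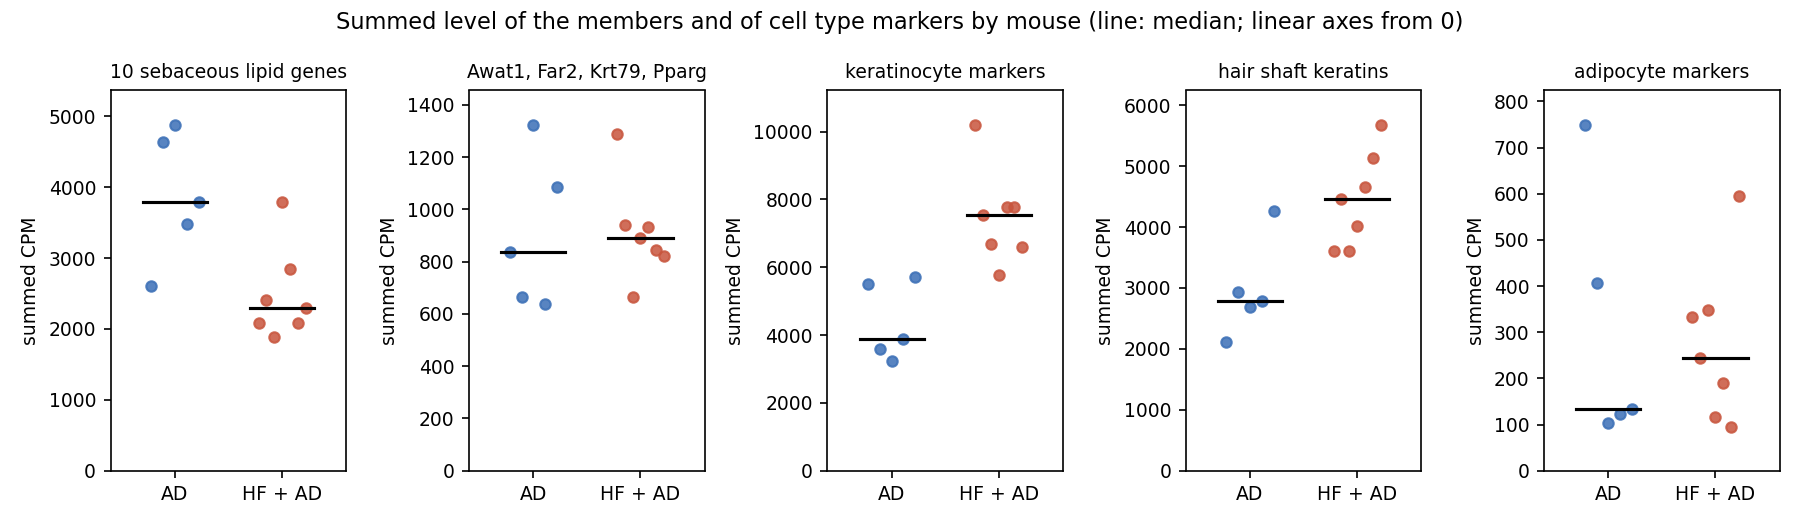
Summed CPM of the 10 sebaceous genes and of 4 marker lists, with 1 point per mouse, a line at the median and linear axes from 0. The sum of the other sebocyte markers, most of it Krt79, overlapped between groups (637 to 1323 against 665 to 1290 CPM), whereas that of the keratinocyte markers did not.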

How the data were processed

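RNA from the skin of 12 mice was sequenced from the 3′ end of mRNA (QuantSeq), and groups were taken from the sample titles. The tables deposited by the authors, 1 per mouse, hold raw counts of reads for each gene symbol. The submitters' processing notes name Bowtie2, bedtools and mm10, and versions, strand use and any removal of duplicate reads are not given in the sources used here. No molecular identifiers are described. Totals were between 9746937 and 13462434, and 35 symbols were listed more than once, none of them among the 10 genes.

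Counts were compared with edgeR 4.0.16 in R 4.3.3 (TMM, filterByExpr, quasi-likelihood, a term for the group and no other, p-values adjusted by Benjamini-Hochberg over the 14163 genes kept, calls at 0.05). Alternatives used DESeq2 1.42.0 and limma 3.58.1, and pandas 2.3.3, SciPy 1.17.1, NumPy 2.4.6 and matplotlib 3.10.9 ran under Python 3.11.15. Values of single genes were log2(CPM + 1), a pseudocount of 1, tested two-sided by exact permutation over 792 splits, whose smallest p is 0.00126. Positions came from GENCODE M21 on GRCm38 and promoter windows from RefSeq on GRCm38.p6. Counts per molecule were estimated from how often genes with 10 to 200 counts in their group were at 0.

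The 10 genes and the gene lists were chosen with earlier results of these data known. Named are the 10 genes, list genes with an adjusted p under 0.05 (at most 4 a list), Awat1, Far2, Dgat2, Pparg and Scd2 whatever their result, and the 10 genes most like them. Lrig1 and the marker genes were named after their values were seen. Nothing beyond the numbering of titles and the study's own counts of mice says that libraries came from separate animals, and otherwise p-values measure the spread between libraries only. Samples of the untreated group and of the herbal treatment were not analysed here.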

Additional observations from a re-analysis of the deposited data

Results flagged for a closer look

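AD mouse 1 stood apart from the other 4 AD mice for 2 genes, out of 38 groups of values examined, and chance alone sets about 1 in 20 such groups apart. For Elovl3, AD mouse 1 had 1051 counts (95.4 CPM), and the gap to the next AD mouse was 0.735 of the group's range in log2(CPM + 1), above the limit of 0.71 for 5 samples. For Dgat2l6, AD mouse 1 had 1 count (0.0908 CPM), and the gap was 0.860 of the range. The same library had the highest estimate of counts per molecule (32.2) and the highest sum of adipocyte markers (749 CPM). The part of either in these values was not tested.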

How the results depend on the processing

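Of 22 alternatives for the fit of Scd1, 21 kept its call, with changes between −0.83 and −0.69. The exception was the replicate number as a block (−0.69, edgeR adjusted p = 0.0634). Numbers did not pair the mice (correlations of same-numbered mice between −0.11 and 0.072, and of 5 only number 4 correlated best with its own), and the block has no partner for HF + AD mice 6 and 7. With the replicate block, 192 genes were called in place of 1303, none of the sebaceous genes, and none of the genes of wax, fatty acid or MAPEG lists. The median change of the sebaceous genes stayed between −0.67 and −0.23 over all 22, and with 1 mouse left out 6 to 8 of the 9 were below 0.

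DESeq2 called 1946 genes and 2 of the sebaceous genes, Mgst1 being added, and the GC correction 2, Fa2h being added. Leaving out 1 mouse at a time gave 639 (without HF + AD mouse 2) to 1461 genes in all, with 686, 794 and 803 when HF + AD mouse 1, HF + AD mouse 4 or AD mouse 2 was left out. It gave 1 to 2 sebaceous genes, 1 to 3 genes of fatty acid synthesis, 0 to 2 of sebocyte differentiation, 0 to 1 of the melanocortin system and 1 to 2 of the MAPEG family. In sebocyte differentiation DESeq2 called 1 gene, counts per molecule 1 and the GC correction 2. In the melanocortin system limma called 1. The share of calls that were higher was 48.1%, against 59.1% with library totals and 33.9% with the GC correction. The median of all genes shifted to 0.12 without a filter, 0.15 with limma and 0.14 with the block.

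Genes near 0 changed sign. Elovl3 was 0.028 with library totals, 0.045 with limma, 0.079 with the block and −0.18 to 0.12 without 1 mouse. Soat1 was 0.10 with the block, 0.00671 with the GC correction and −0.23 to 0.11 without 1 mouse. Dgat2 was −0.47 to 0.11 without 1 mouse. The exact permutation p-values of genes whose difference turned ran from 0.209 to 0.972 for Elovl3, 0.446 to 0.989 for Soat1, 0.336 to 0.891 for Mc5r and 0.117 to 0.997 for Dgat2l6. For ratios, and for the likeness to the sebaceous genes, alternatives were added after the data were seen. The exact p of Scd1 to Awat2 was 0.891 with a pseudocount of 0.1 and 0.455 to 0.944 without 1 mouse, and the ranges were 0.260 to 0.981 for Scd3, 0.416 to 0.921 for Fa2h and 0.345 to 0.848 for Mgst1. The likeness of Elovl1 was −0.39 to 0.16 without 1 mouse. The causes were not tested. Mc5r had at most 24 counts in a library and did not pass the filter on low counts of the main fit.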
